A study of Homo sapiens with 27 samples.

Results

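Oxidative phosphorylation is carried out by enzyme complexes whose subunits come from 2 genomes, and 97 of the 20268 gene symbols in the count table were taken to describe it. They were chosen by symbol: the NDUFA, NDUFB, NDUFC, NDUFS and NDUFV genes, UQCR, COX4 to COX8, ATP5 and MT- genes, and CYC1, without NDUFA4 and NDUFA4L2. No measured value entered the choice. The nuclear genome encodes 84 of them, of which 37 belong to complex I, 9 to complex III, 18 to complex IV and 20 to complex V, and the mitochondrial genome encodes 13. RNA-seq was performed on 3 human prostate cancer cell lines, LNCaP (hormone-sensitive, from a lymph node metastasis), LNCaP95 (a hormone-insensitive derivative of LNCaP, kept in phenol red-free medium) and 22Rv1 (hormone-insensitive, from a xenograft). Each line was infected with lentivirus encoding a control hairpin (CTRL sh) or a hairpin against CPSF1 (either CPSF1 sh1 or CPSF1 sh2), which gave 9 groups of 3 libraries and 27 libraries in all. The infected cells were puromycin-selected pools and not clones, and every group, controls included, carried a lentiviral hairpin and was selected in puromycin. Cells were seeded at 500000 per well and grown for 72 h before RNA was taken. The p-values below rest on the spread between the 3 replicates labelled for each group. In fits that pooled both CPSF1 hairpins, within a line or between lines, that spread also held the difference between the hairpins.

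Electrons from NADH enter the respiratory chain at complex I and pass through ubiquinone to complex III, then through cytochrome c to complex IV, where oxygen is reduced. Complexes I, III and IV pump protons across the inner mitochondrial membrane, and complex V (ATP synthase) uses the gradient to make ATP. The mitochondrial genome is transcribed from both strands into long precursors that are cut at tRNAs. The genes on its heavy strand and its single light-strand mRNA, MT-ND6, therefore come from separate precursors. Mitochondrial mRNAs receive their 3′ ends from mitochondrial enzymes, whereas the nuclear genes depend on the cleavage and polyadenylation machinery that holds CPSF1, a scaffold of the complex that recognizes the AATAAA signal.

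Since the nuclear-encoded and the mitochondrial mRNAs are ended by different machinery, the sequences at the ends of the genes that carry the results are shown. Among the last 50 bases of each annotated gene (GRCh37), the hexamer AATAAA was found in 36 of the 74 nuclear-encoded genes expressed in every line (48.6%) and in 60.8% of 12497 expressed genes of the whole table. The variant ATTAAA, searched where AATAAA was absent, was found in 12 (16.2%, against 14.4%), and neither in 26 (35.1%, against 24.8%). Neither hexamer was in the last 50 bases of any of the 13 mitochondrial genes. Only the strand of the gene was searched. Each line below is 30 bases, 5′ to 3′ on the strand of the gene, with AATAAA in capitals where it occurs. NDUFS5 and NDUFS1 changed in the same direction in every line, NDUFS7 and UQCRC1 in opposite directions between lines, and MT-ND5 and MT-ND6 end at adjacent bases on opposite strands of the mitochondrial genome.
NDUFS5, chr1:39500259-39500288, plus strand: gtgtaaaAATAAAggattgctccatcctat
NDUFS1, chr2:206979545-206979574, minus strand: ctcagcagatacAATAAAaacttaattgtg
NDUFS7, chr19:1395546-1395575, plus strand: cgtgaggttgtcAATAAAcctgccctcggg
UQCRC1, chr3:48636438-48636467, minus strand: caggtgaccaccAATAAAatcctctgctga
MT-ND5, chrMT:14119-14148, plus strand: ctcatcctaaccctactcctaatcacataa
MT-ND6, chrMT:14149-14178, minus strand: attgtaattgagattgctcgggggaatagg
Genes that rose and genes that fell both held the hexamer, as UQCRC1 and NDUFS5 show in LNCaP. NDUFB8 and NDUFA7, which fell, held neither hexamer in that window, and their exons overlap those of SEC31B and CD320 on the same strand. Not all genes with neither hexamer had such an overlap. NDUFA3, COX7A2L, UQCRQ and COX7A2, which fell in LNCaP95, held neither and had no same-strand exon overlap. The same was true of UQCRB, which rose in every line. All nuclear-encoded examples printed above hold AATAAA, which 36 of the 74 genes did. The window lay at the outermost annotated end of each gene, which need not be the end that its mRNA uses. A gene with neither hexamer there can therefore still hold one at another end.

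Promoters of respiratory chain genes are known for sites of the transcription factors NRF1, the ETS family (which includes GABP) and YY1. RefSeq promoter sequences (GRCh38.p14, 250 bases before to 50 bases after the start) could be matched for 60 of the 74 expressed nuclear-encoded genes. The NRF1 motif, GCGCA and GCGC separated by 1 base of any kind, was found on either strand in 13 of them (21.7%), against 6.29% of 27305 promoters and 11.8% of the promoters of 9557 expressed genes. The ETS motif CCGGAAG was found in 17 (28.3%, against 10.7% and 19.4%) and the YY1 motif AAGATGGCG in 7 (11.7%, against 1.85% and 4.06%). The end of the ETS motif and the start of the YY1 motif share the letters AAG, so their matches can overlap. Of the 60 promoters 28 held none of them, and 5 held several. These matches describe letters in the window. The examples below, 30 bases on the strand of the gene with the motif in capitals, are from genes whose response differed between lines.
UQCRC1, NRF1 (opposite strand), chr3:48609674-48609703, minus strand: gtacggtactGCGCCTGCGCcgcgaccgcc
UQCRC1, YY1, chr3:48609604-48609633, minus strand: ctgcagctggAAGATGGCGgcgtccgtggt
UQCR10, NRF1, chr22:29767351-29767380, plus strand: gtcggccccaGCGCAGGCGCggtggcgcga
NDUFS7, YY1, chr19:1383914-1383943, plus strand: ggccgaggccAAGATGGCGgtgctgtcagg
NDUFA7, YY1, chr19:8321342-8321371, minus strand: tcgcggacggAAGATGGCGtccgccacccg
COX8A, ETS (opposite strand), chr11:63974591-63974620, plus strand: cagctccagaaCTTCCGGccagcgcagcca

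Total counts ranged from 8515624 to 15904518 between libraries, a 1.87-fold range. The summed count of the 13 mitochondrial genes ranged from 187366 to 237458 (1.27-fold), while that of the nuclear-encoded genes ranged from 103665 to 177203 (1.71-fold). The mitochondrial share was lowest in the deepest library (1.49%, LNCaP95 CPSF1 sh1 replicate 1) and highest in the shallowest (2.30%, LNCaP CPSF1 sh1 replicate 1). These libraries are of different lines. The nuclear-encoded share stayed between 1.11 and 1.32%. CPSF1 itself was lower with CPSF1 sh in every line, with log2 fold changes of -0.65 in LNCaP, -0.89 in LNCaP95 and -0.50 in 22Rv1 and no overlap between groups. All 7 prostate luminal markers examined (HOXB13, KRT8, KRT18, KLK3 and TMPRSS2 among them) were expressed in every line, and KRT5, TP63, DCN, PTPRC and CD3E were at or near 0. COL1A1, a collagen gene, was at 23.7, 66.2 and 11.96 CPM in CTRL sh libraries of LNCaP, LNCaP95 and 22Rv1. With CPSF1 sh it fell in LNCaP (-0.71) and LNCaP95 (-0.40) and not beyond the threshold in 22Rv1 (-0.06), while of the luminal markers 2 rose and 4 fell in LNCaP, 1 rose and 4 fell in LNCaP95, and 1 rose and 2 fell in 22Rv1. Their part in the results below was not tested.

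**Figure D1:**
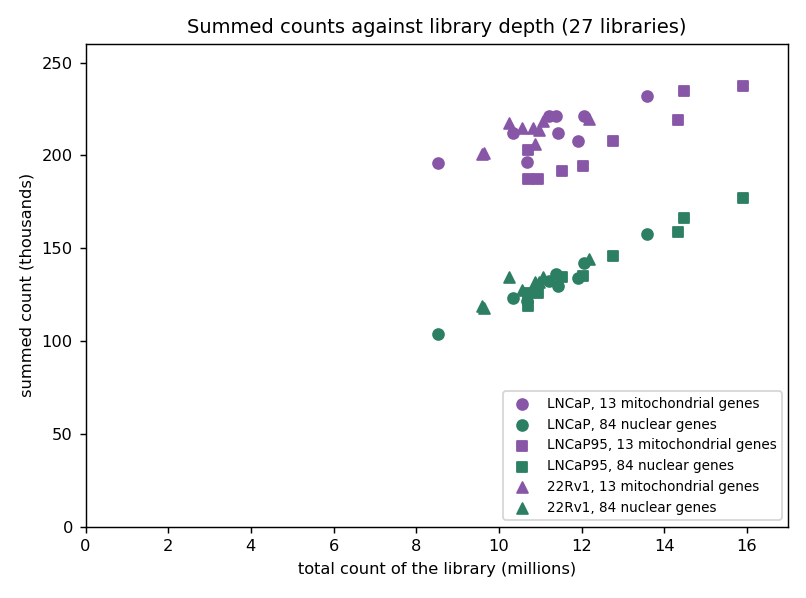
Summed counts (vertical axis) of the 13 mitochondrial genes and of the nuclear-encoded genes against the total count (horizontal axis), 1 point per library, symbols by line. The nuclear-encoded sum grew with the total count, while the mitochondrial sum spanned a 1.27-fold range over a 1.87-fold range of depth.

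Levels are given as CPM, the count of a gene relative to the TMM-scaled total of its library within a line, and changes as log2 fold changes of the 6 CPSF1 sh libraries against the 3 CTRL sh libraries. A gene was called when its Benjamini-Hochberg adjusted p in the edgeR quasi-likelihood test over all expressed genes was below 0.05. "Rose" and "fell" are used for called genes. The level of an mRNA in a culture does not separate less RNA per cell from fewer cells of a type.

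MT-ND6, a membrane subunit of complex I and the mRNA of the mitochondrial light strand (chrMT, 14149 to 14673), rose in all 3 lines. In LNCaP cells it was at 101, 128 and 120.2 CPM in the CTRL sh libraries and at 175 (lowest), 190.1 (median) and 239.7 CPM (highest) in the CPSF1 sh libraries. This was a log2 fold change of 0.77 (SE 0.0968, adjusted p = 7.49e-06), and no library of one group reached the other. In LNCaP95 cells the CTRL sh libraries were at 75.5, 74.3 and 61.7 CPM and the CPSF1 sh libraries at 91.8, 119 and 188 CPM. The groups again stood apart, with a log2 fold change of 0.85 (SE 0.22, adjusted p = 0.00435). In 22Rv1 cells the CTRL sh libraries were at 101, 90.2 and 101 CPM and the CPSF1 sh libraries at 126, 160.5 and 207 CPM, for a log2 fold change of 0.73 (SE 0.137, adjusted p = 0.00158).

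The rise of MT-ND6 was also seen as a share of the mitochondrial counts. That share is not free of depth, since the mitochondrial sum did not grow in step with the total count. MT-ND6 took 0.550 to 0.734% of the mitochondrial counts in LNCaP CTRL sh libraries and 0.746 to 1.31% with CPSF1 sh. The corresponding ranges were 0.310 to 0.445% and 0.587 to 1.08% in LNCaP95, and 0.460 to 0.558% and 0.624 to 1.05% in 22Rv1. The ranges did not overlap in any line. CPSF1 sh2 gave higher MT-ND6 than CPSF1 sh1. The difference was 0.29 in LNCaP (adjusted p = 0.00393) and 0.79 in LNCaP95 (adjusted p = 2.31e-07). In 22Rv1 it was 0.37 (adjusted p = 0.0389), but it was not called with DESeq2 (adjusted p = 0.144) or after leaving out any of 4 of the 6 CPSF1 sh libraries (both replicates 1 and both replicates 2). The counts were made by the authors with the strand of the reads, and MT-ND6 is the mitochondrial mRNA with the fewest counts (629 to 2971 per library). The RNA was poly(A)-selected, so these counts do not separate the amount of MT-ND6 RNA from the share of it captured by a tail.

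**Figure D2:**
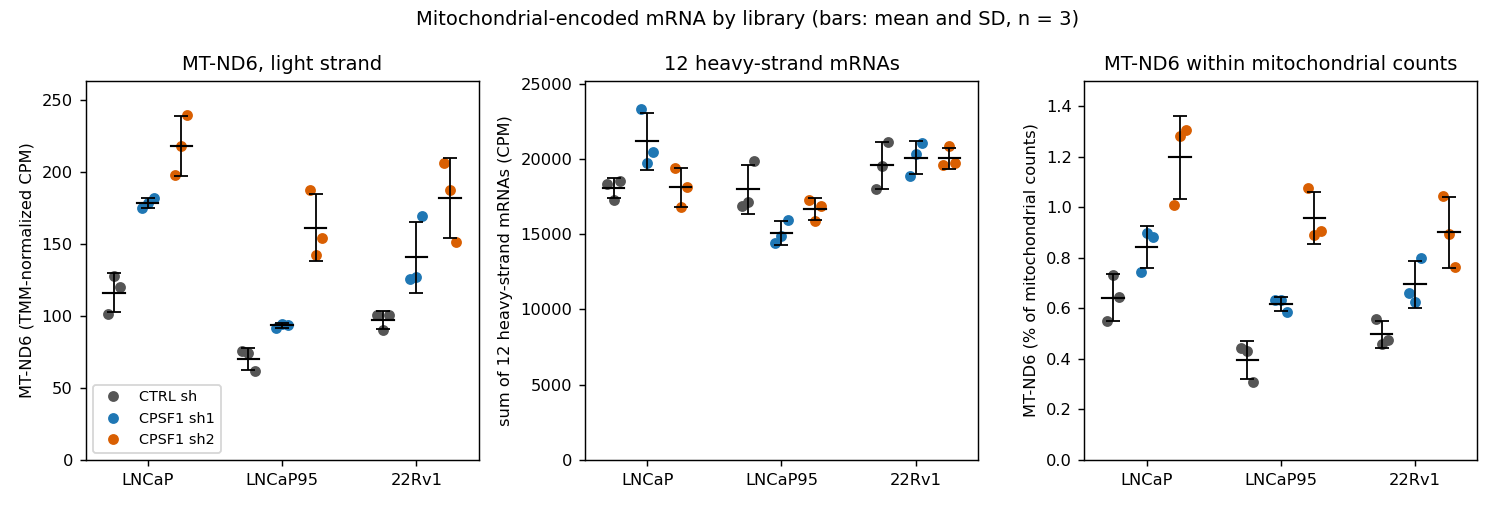
MT-ND6 (TMM-normalized CPM), the sum of the 12 heavy-strand mRNAs (CPM) and MT-ND6 as a percentage of mitochondrial counts, 1 point per library, colours by hairpin, horizontal bars with whiskers for mean and SD (n = 3). MT-ND6 lay above the CTRL sh libraries in every CPSF1 sh library of each line, while the heavy-strand sum was higher with CPSF1 sh1 in LNCaP and lower with CPSF1 sh1 in LNCaP95 than in any CTRL sh library of the line.

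The summed level of the 12 heavy-strand mRNAs was 18039 ± 654 CPM (SD, n = 3) in LNCaP CTRL sh libraries, 21153 ± 1888 with CPSF1 sh1 and 18112 ± 1299 with CPSF1 sh2. In LNCaP95 it was 17962 ± 1633 CPM with CTRL sh, 15071 ± 772 with CPSF1 sh1 and 16660 ± 716 with CPSF1 sh2. In 22Rv1 the 3 groups were at 19560 ± 1571, 20067 ± 1086 and 20038 ± 708 CPM. With CPSF1 sh1 every library lay above the CTRL sh libraries in LNCaP and below them in LNCaP95. The CPSF1 sh2 libraries overlapped the CTRL sh libraries in each line, and in 22Rv1 so did those with CPSF1 sh1.

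In LNCaP cells 5 of the 13 mitochondrial genes rose and none fell, where 31.1% of all 11096 genes rose and 31.0% fell (62.1% in all). Besides MT-ND6 these were MT-ATP6 (0.19, adjusted p = 0.0247) and MT-ATP8 (0.19, adjusted p = 0.0304), which encode membrane subunits of ATP synthase and share bases, and the complex I subunits MT-ND2 (0.18, adjusted p = 0.0467) and MT-ND5 (0.20, adjusted p = 0.0334). For these 4 the CTRL sh and CPSF1 sh libraries overlapped, and leaving out any 1 of the 3 CTRL sh libraries left MT-ND6 as the only call. The median change of the 13 was 0.14, against -0.00 over all genes. The hairpins differed. Against CTRL sh, all 13 rose with CPSF1 sh1, where 31.2% of all genes rose and 62.6% were called in either direction. MT-ND6 alone rose with CPSF1 sh2, where 32.1% of all genes rose and 64.6% were called. Between the hairpins, the 12 heavy-strand genes were all lower with CPSF1 sh2 (8.24% of all genes were) and MT-ND6 was higher (6.53% of all genes). These calls were not stable: of the 22 genes of both genomes called between the hairpins in LNCaP, 8 were called with DESeq2, 14 without CPSF1 sh1 replicate 1 and 5 without CPSF1 sh2 replicate 2. The heavy-strand differences lay between -0.26 (MT-ND5) and -0.18 (MT-ND3). The CPSF1 sh1 libraries of LNCaP held 8515624 to 11197401 counts and the CPSF1 sh2 libraries 11368258 to 13567312, so depth moved with this difference, and its part in the difference between hairpins was not tested. With the total count as a covariate of the pooled fit, an alternative added after the data had been seen, 12 mitochondrial genes were called higher in LNCaP.

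In LNCaP95 cells 7 of the 13 fell and MT-ND6 rose, where 33.7% of all 11143 genes fell and 33.2% rose (66.9% in all). MT-ND1, a core membrane subunit of complex I, was at 1445, 1401 and 1626 CPM in the CTRL sh libraries and at 1113, 1207 and 1302 CPM (lowest, median, highest) in the CPSF1 sh libraries, and fell by 0.31 on the log2 scale (SE 0.0603, adjusted p = 0.000583). MT-ND4 went from 2961, 2980 and 3610.2 CPM to 2377, 2574 and 2769.8 CPM and fell by 0.31 (adjusted p = 0.00155). MT-ND3 fell by 0.31 (adjusted p = 0.000301) and MT-ND4L by 0.27 (adjusted p = 0.00316). These 4 complex I subunits had no overlap between groups. MT-ND2 (-0.20), MT-CO2 (-0.20) and MT-CYB (-0.17) were also called, with overlap, and MT-CO3 (-0.04), MT-ND5 (-0.05), MT-ATP8 (-0.10), MT-ATP6 (-0.12) and MT-CO1 (-0.12) were not. Normalization by library size alone left 4 of the 7 falls called, where 2850 of all 11143 genes fell. Leaving out CTRL sh replicate 3, the library with the highest heavy-strand sum of its group, also left 4. Against CTRL sh, 11 genes fell with CPSF1 sh1 (33.3% of all genes fell) and 5 with CPSF1 sh2 (36.9%), and between the hairpins 8 of the 13 were higher with CPSF1 sh2 (16.5% of all genes, and 34.1% in either direction) and none lower. The CPSF1 sh1 libraries were the deeper ones here (12744820 to 15904518 counts, against 10698843 to 12019513 with CPSF1 sh2). The part of depth in the difference between hairpins was not tested. With the total count as a covariate of the pooled fit, 9 mitochondrial genes were called lower and 1 higher, where 3997 of all 11143 genes were lower and 3979 higher.

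In 22Rv1 cells 3 of the 13 rose, MT-ND6, MT-ATP8 (0.17, adjusted p = 0.0233) and MT-ATP6 (0.15, adjusted p = 0.0414), and none fell, where 12.7% of all 11728 genes rose and 14.3% fell. The other 10 lay between -0.03 (MT-CO2) and 0.10 (MT-ND3). MT-ATP6 and MT-ATP8 were no longer called without CTRL sh replicate 1 or without replicate 2. With the total count as a covariate 3 mitochondrial genes were called higher and 0 lower, where 1244 of all 11728 genes were higher and 1483 lower. MT-CO1 and MT-CO3, core subunits of complex IV, were called in no line.

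The nuclear-encoded genes moved mostly up in LNCaP, mostly down in LNCaP95 and little in 22Rv1. All 74 that passed the expression filter in any line passed it in every line. In LNCaP 31 rose (41.9%, against 31.1% of all genes) and 9 fell (12.2%, against 31.0%), with a median change of 0.09. In LNCaP95 4 rose (5.41%, against 33.2%) and 31 fell (41.9%, against 33.7%), with a median of -0.08. In 22Rv1 6 rose (8.11%, against 12.7%) and 7 fell (9.46%, against 14.3%), with a median of -0.02. The medians over all genes were -0.00, 0.00 and -0.00. The 6 CPSF1 sh libraries all lay above the 3 CTRL sh libraries for 29 of the 74 genes in LNCaP (27.9% of all genes did) and below for 7 (27.7%), in LNCaP95 for 3 above (29.8%) and 29 below (30.3%), and in 22Rv1 for 6 above (13%) and 4 below (15.2%). With library size alone in LNCaP95, 12 rose and 20 fell, where 4685 of all 11143 genes rose and 2850 fell. The median over all genes then moved to 0.09 and the median of the nuclear-encoded genes to 0.00. In 22Rv1 23 fell without CPSF1 sh1 replicate 3, which had the highest nuclear-encoded share of any library, 3 fell without CTRL sh replicate 2 or 3, and 4 without CTRL sh replicate 1 or CPSF1 sh2 replicate 2.

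**Figure D3:**
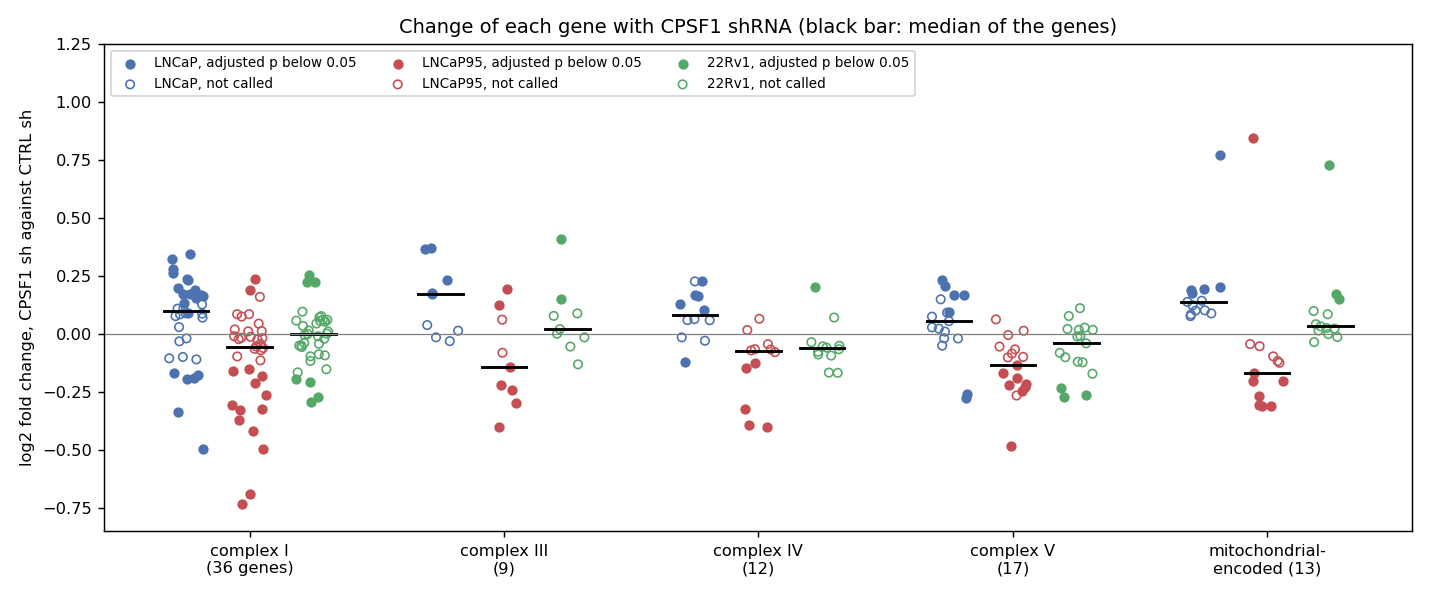
Log2 fold change of each gene with CPSF1 sh against CTRL sh (vertical axis) by complex and line, filled where the adjusted p was below 0.05 and open where not, black bars for medians. Medians of all 4 complexes were above 0 in LNCaP and below 0 in LNCaP95, and MT-ND6 stood above all other points in each line.

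Among 36 genes of complex I, 16 rose and 6 fell in LNCaP. In LNCaP95 2 rose and 13 fell, and in 22Rv1 3 rose and 4 fell. The shares that rose were 44.4, 5.56 and 8.33%, against 31.1, 33.2 and 12.7% of all genes, and those that fell 16.7, 36.1 and 11.1%, against 31.0, 33.7 and 14.3%, so the falls in LNCaP95 and both counts in 22Rv1 lay near the share over all genes or below it. Among its nuclear-encoded core subunits, which carry the flavin and the iron-sulfur clusters or build the quinone pocket, NDUFS3, NDUFS7, NDUFS8, NDUFV1 and NDUFV2 rose and NDUFS1 fell in LNCaP. In LNCaP95 NDUFS1, NDUFS7 and NDUFV1 fell, and in 22Rv1 NDUFV2 rose and NDUFS1 fell.

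NDUFS5, an accessory subunit of the membrane arm, had the largest fall of the nuclear-encoded genes in every line. It was at 175, 173 and 171 CPM in LNCaP CTRL sh libraries and at 109, 121 and 140.2 CPM with CPSF1 sh, and fell by 0.50 on the log2 scale (SE 0.0730, adjusted p = 3.49e-05). In LNCaP95 it went from 198, 209 and 203 CPM to 118, 122 and 128 CPM and fell by 0.73 (SE 0.0415, adjusted p = 4.99e-08). In 22Rv1 it went from 114, 123 and 124 CPM to 92.7, 98.1 and 105 CPM and fell by 0.29 (SE 0.0523, adjusted p = 0.00114). The groups did not overlap in any line, and the LNCaP95 libraries started highest and fell furthest. The fall in LNCaP was larger with CPSF1 sh2 than with CPSF1 sh1, by 0.29 (adjusted p = 9.76e-05).

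NDUFS1, the largest iron-sulfur subunit of the NADH-oxidizing arm, also fell in every line without overlap. It went from 221, 213 and 228 CPM to 187, 194 and 201 CPM in LNCaP (-0.19, adjusted p = 0.000341). In LNCaP95 it went from 272, 276 and 281 CPM to 211, 220.0 and 245 CPM (-0.30, adjusted p = 0.000144). In 22Rv1 it went from 258, 267 and 257 CPM to 205, 217 and 232 CPM (-0.27, adjusted p = 0.000595). NDUFB8, an accessory subunit of the membrane arm, fell by 0.34 in LNCaP (adjusted p = 0.00073) and by 0.50 in LNCaP95 (adjusted p = 3.97e-05). In 22Rv1 it fell by 0.19 (adjusted p = 0.0254), but its groups overlapped and the call was lost without CTRL sh replicate 2, CTRL sh replicate 3 or CPSF1 sh2 replicate 2.

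NDUFS7, an iron-sulfur core subunit, was at 62.6, 62.8 and 57.4 CPM in LNCaP CTRL sh libraries and at 69.0, 75.6 and 86.0 CPM with CPSF1 sh, and rose by 0.32 on the log2 scale (SE 0.0613, adjusted p = 0.000326). In LNCaP95 it fell from 83.8, 68.0 and 84.02 CPM to 61.2, 68.3 and 72.4 CPM (-0.21, SE 0.0719, adjusted p = 0.0204), where CTRL sh replicate 2 lay among the CPSF1 sh libraries. The call in LNCaP95 was lost with library size alone and without CTRL sh replicate 1 or replicate 3, and in 22Rv1 the change was -0.01. NDUFV1, which binds NADH and flavin, rose in LNCaP from 245, 245 and 238 CPM to 258, 267 and 285 CPM (0.16, adjusted p = 0.00165). In LNCaP95 it fell from 260.3, 231 and 253 CPM to 193, 207 and 222 CPM (-0.26, adjusted p = 0.00118), without overlap in either line. NDUFC1, a membrane arm subunit, rose by 0.16 in LNCaP and fell by 0.15 in LNCaP95, and NDUFB7 rose by 0.19 in LNCaP and fell by 0.21 in 22Rv1, where its groups overlapped.

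Of the other complex I genes, NDUFA7, an accessory subunit, fell in LNCaP95 from 84.3, 73.1 and 86.0 CPM to 44.9, 51.2 and 54.9 CPM, by 0.69 on the log2 scale (SE 0.0699, adjusted p = 3.67e-06). In LNCaP (-0.10, adjusted p = 0.11) and 22Rv1 (-0.04, adjusted p = 0.678) its groups overlapped. The accessory subunits NDUFA3 (-0.42) and NDUFB5 (-0.37) were further large falls in LNCaP95. NDUFS4 and NDUFS6, accessory subunits of the NADH-oxidizing arm, fell in LNCaP (-0.17 and -0.19) and LNCaP95 (-0.32 and -0.33). NDUFS8, an iron-sulfur subunit (0.35), and NDUFB3 (0.28) were among the largest rises in LNCaP, NDUFA8 rose in LNCaP (0.17) and LNCaP95 (0.19), and NDUFB4 rose in LNCaP (0.17) and 22Rv1 (0.23).

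**Figure D4:**
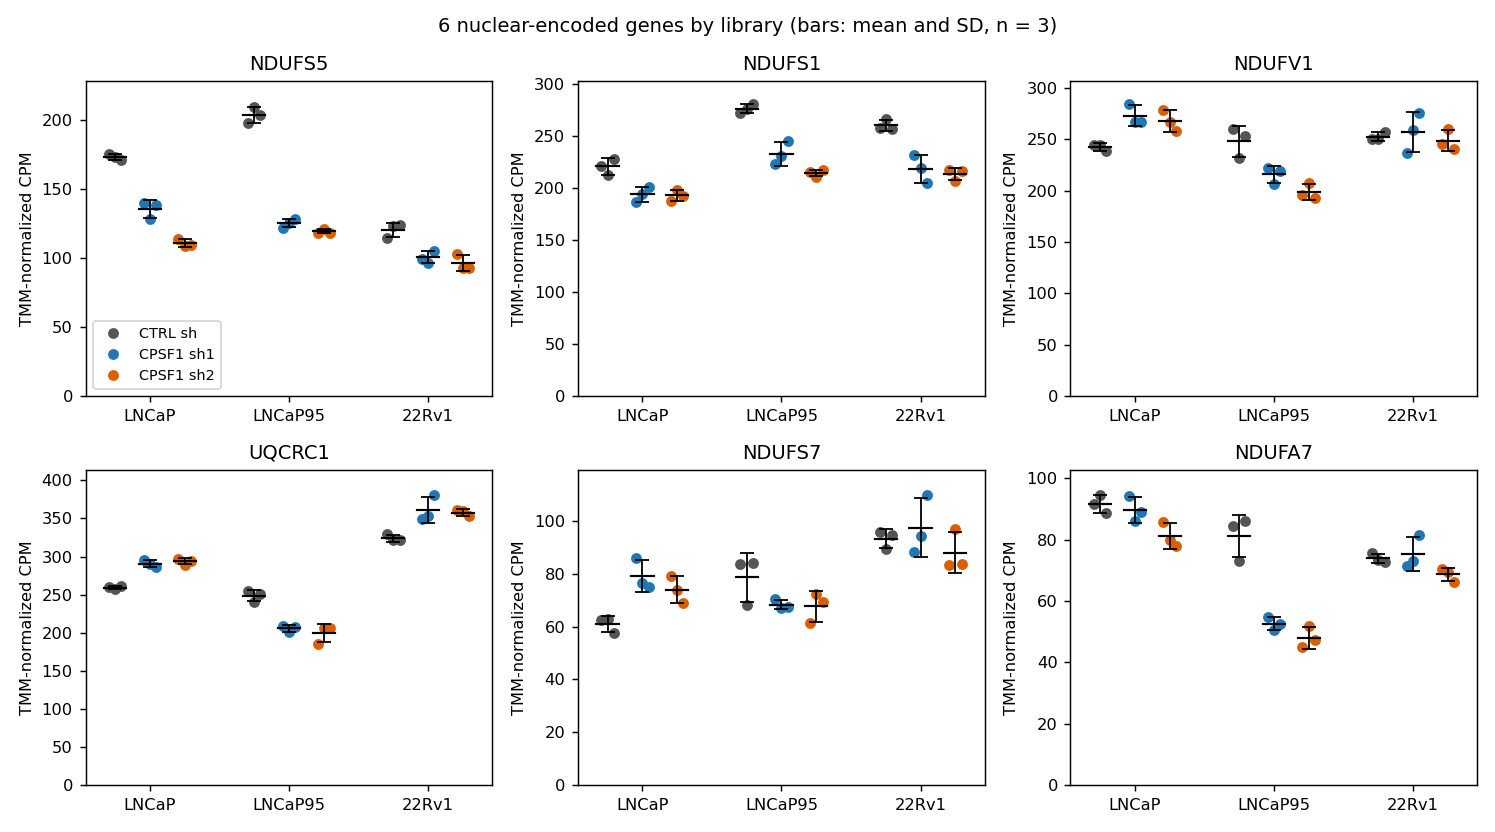
TMM-normalized CPM of NDUFS5, NDUFS1, NDUFV1, UQCRC1, NDUFS7 and NDUFA7, 1 point per library, colours by hairpin, horizontal bars with whiskers for mean and SD (n = 3). NDUFS5 and NDUFS1 were lower in every CPSF1 sh library of each line, NDUFV1 was higher in LNCaP and lower in LNCaP95, UQCRC1 was higher in LNCaP and 22Rv1 and lower in LNCaP95, and NDUFA7 stood apart from its CTRL sh libraries in LNCaP95.

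Complex III gave 5 rises and no fall among 9 genes in LNCaP, 2 rises and 5 falls in LNCaP95, and 2 rises in 22Rv1. These were 55.6, 22.2 and 22.2% rises, against 31.1, 33.2 and 12.7% of all genes, and 55.6% falls in LNCaP95, against 33.7%, in a group of 9 genes. UQCRB, a small subunit near the quinone site, rose in all 3 lines. Its levels went from 196, 179 and 184 CPM to 222, 238 and 266 CPM in LNCaP (0.37, SE 0.0557, adjusted p = 4.71e-05). In LNCaP95 they went from 136, 148 and 141 CPM to 149.9, 164 and 171 CPM (0.20, SE 0.0546, adjusted p = 0.00683). In 22Rv1 they went from 165, 174 and 176 CPM to 212, 228 and 244 CPM (0.41, SE 0.0526, adjusted p = 0.00012), the largest rise of a nuclear-encoded gene in that line. UQCRC1, a core protein of the complex, rose in LNCaP from 259.7, 257 and 262 CPM to 286, 292 and 297 CPM (0.17, adjusted p = 0.000157). It fell in LNCaP95 from 254, 240.1 and 251 CPM to 185, 206 and 209 CPM (-0.30, adjusted p = 0.000101). In 22Rv1 it rose from 329, 321 and 321 CPM to 349, 356 and 381 CPM (0.15, adjusted p = 0.0104), a call that was lost without CTRL sh replicate 2. The groups did not overlap in any line. UQCR10, a small subunit, had the largest rise of the nuclear-encoded genes in LNCaP, from 84.3, 80.1 and 75.4 CPM to 101, 103 and 106 CPM (0.37, adjusted p = 2.73e-06), and fell in LNCaP95 (-0.14, adjusted p = 0.0174), where the groups overlapped. The Rieske iron-sulfur protein UQCRFS1 rose in LNCaP (0.23) and LNCaP95 (0.13), while the core protein UQCRC2 (-0.24), cytochrome c1 (CYC1, -0.22) and the small subunit UQCRQ (-0.40) fell in LNCaP95.

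Complex IV gave 5 rises and 1 fall among 12 genes in LNCaP, 5 falls in LNCaP95 and 1 rise in 22Rv1. The rises were 41.7% of the genes in LNCaP (31.1% of all genes) and 8.33% in 22Rv1 (12.7%), and the falls 8.33% in LNCaP (31.0%) and 41.7% in LNCaP95 (33.7%). COX4I1, COX5A, COX6A1, COX6B1 and COX7B rose in LNCaP by 0.10 to 0.23, and COX7A2 fell (-0.12). In LNCaP95 COX8A fell from 234, 216 and 232 CPM to 166, 173 and 182 CPM (-0.39, adjusted p = 7.32e-06), and COX7A2L, which joins complexes III and IV in supercomplexes, fell from 139.9, 144 and 143 CPM to 101, 108 and 115 CPM (-0.40, adjusted p = 1.51e-05). Both were without overlap, and COX7A2 (-0.32), COX5B (-0.14) and COX7C (-0.12) also fell there. COX6C rose in 22Rv1 (0.20, adjusted p = 0.00947), a call that was lost without CTRL sh replicate 1 or replicate 2. COX6A1P2, which carries a pseudogene name and shares sequence with COX6A1, was at 5.16 to 11.3 CPM and is uncertain.

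Complex V gave 5 rises and 2 falls among 17 genes in LNCaP, 8 falls in LNCaP95 and 3 falls in 22Rv1. The 29.4% that rose in LNCaP and the 17.6% that fell in 22Rv1 lay near the shares of all genes (31.1 and 14.3%), while 11.8% fell in LNCaP (31.0%) and 47.1% in LNCaP95 (33.7%). ATP5B, the catalytic beta subunit, was the most highly expressed of the nuclear-encoded genes. It rose in LNCaP from 1254, 1222 and 1266 CPM to 1342, 1395 and 1480.2 CPM (0.17, adjusted p = 0.00071). In LNCaP95 it fell from 1331, 1365 and 1395 CPM to 1172, 1247 and 1325 CPM (-0.13, adjusted p = 0.0238), a call that was lost with library size alone and without CTRL sh replicate 2 or replicate 3. The alpha subunit ATP5A1 fell in LNCaP95 (-0.23) and was not called in LNCaP (-0.02) or 22Rv1 (0.03), and the gamma subunit ATP5C1 rose in LNCaP (0.21). The 3 genes that encode the same mature c subunit of the membrane ring moved apart. ATP5G2 went from 250.04, 244 and 255 CPM to 195, 205 and 224 CPM in LNCaP (-0.27, adjusted p = 5.51e-05) and from 234, 219 and 218 CPM to 151, 157 and 171 CPM in LNCaP95 (-0.48, adjusted p = 6.42e-06). ATP5G3 rose in LNCaP (0.23, adjusted p = 3.43e-05), and ATP5G1 was called in no line. ATP5F1, a stalk subunit, fell in LNCaP95 (-0.25) and 22Rv1 (-0.23), and the delta subunit ATP5D fell in both (-0.19 and -0.26). ATP5S and ATP5SL match the symbol rule but are accessory factors and not subunits of the enzyme. ATP5S fell in LNCaP (-0.26) and 22Rv1 (-0.27), in the latter with a call that was lost without any 1 of the CTRL sh libraries, and ATP5SL fell in LNCaP95 (-0.22).

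Because a gene called in 1 line and not in another has not been shown to differ, the change with CPSF1 sh was compared between lines in a fit of all 27 libraries (10317 genes). The change was lower in LNCaP95 than in LNCaP for 37 of the 74 nuclear-encoded genes and higher for 1, where 24.1% of all genes were lower and 26.7% higher (50.9% in all). The median difference was -0.18, against 0.01 over all genes, and complex V (11 of 17) and complex III (6 of 9) held the highest shares of called genes. Of the mitochondrial genes 9 of 13 were lower, all on the heavy strand, from -0.43 (MT-ND1) to -0.24 (MT-ND5), and MT-ND6 did not differ beyond the threshold (0.09). With library size alone the counts were 2 higher and 21 lower for the nuclear-encoded and 5 lower for the mitochondrial genes. Of all 10317 genes, 3568 were then higher and 1850 lower, with a median of 0.09.

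Between 22Rv1 and LNCaP, 18 nuclear-encoded genes changed less or further down in 22Rv1 and 1 further up (20% and 20.4% of all genes, 40.4% in all), and no mitochondrial gene was called (differences of -0.14 to -0.01). Between 22Rv1 and LNCaP95, 22 nuclear-encoded genes and 6 mitochondrial genes were higher in 22Rv1 and 2 nuclear-encoded genes, NDUFB2 and UQCRFS1, lower (26.6 and 27.1% of all genes, 53.7% in all). With library size alone these were 17, 4 and 5, where 2122 of all 10317 genes were higher and 3550 lower, with a median of -0.08. UQCRC1 had the largest difference relative to its error both between LNCaP95 and LNCaP (-0.45, SE 0.0519, adjusted p = 3.28e-08) and between 22Rv1 and LNCaP95 (0.44, SE 0.0517, adjusted p = 4.89e-08). Of the 7 nuclear-encoded genes called in opposite directions in a pair of lines (NDUFS7, NDUFB7, UQCRC1, NDUFV1, NDUFC1, UQCR10 and ATP5B), only UQCRC1 and NDUFV1 remained so with library size alone. MT-ND2 was called in opposite directions in LNCaP (0.18) and LNCaP95 (-0.20), with overlapping libraries in both.

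The hairpins were compared directly, since their contrasts with CTRL sh share the control libraries. In LNCaP 1 nuclear-encoded gene was higher and 8 were lower with CPSF1 sh2 than with CPSF1 sh1 (6.53 and 8.24% of all genes). The largest after NDUFS5 was UQCRQ, which changed by 0.12 with CPSF1 sh1 and -0.15 with CPSF1 sh2 against CTRL sh (difference -0.27, adjusted p = 0.00069). In LNCaP95 9 were higher and 6 lower (16.5 and 17.7% of all genes). With library size alone 6 were higher and 7 lower (1472 and 2245 of all 11143 genes). NDUFB4 changed by -0.26 with CPSF1 sh1 and 0.02 with CPSF1 sh2 (difference 0.27, adjusted p = 9.3e-05), and NDUFB2 (0.24) and NDUFA3 (-0.23) also differed. In 22Rv1 1 was higher (UQCRB, 0.14) and 2 lower (NDUFB10, -0.21, and ATP5G2, -0.18), where 5.47 and 5.85% of all genes were called, and leaving out single libraries left between 0 and 11 called genes of both genomes. Set beside CTRL sh, CPSF1 sh1 gave 6 rises and 3 falls of the nuclear-encoded genes in 22Rv1 (8.79 and 11.1% of all genes, 19.9% called). CPSF1 sh2 gave 7 rises and 18 falls there (19.1 and 20.9% of all genes, 40.0% called), and these falls, at 24.3%, lay near the share over all genes. In LNCaP the counts were 33 and 6 with CPSF1 sh1 (31.2 and 31.3% of all genes) and 32 and 12 with CPSF1 sh2 (32.1 and 32.5%). In LNCaP95 they were 4 and 41 with CPSF1 sh1 (33.1 and 33.3%, 66.4% called) and 8 and 28 with CPSF1 sh2 (36.5 and 36.9%, 73.4% called). The 28 falls, at 37.8%, lay near the share over all genes.

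The levels without CPSF1 knockdown were compared per kilobase of exon in the CTRL sh libraries, which are parallel cultures. Exon lengths were summed over the annotation (12031 bases for NDUFS1) and need not be the length of the mRNA used. A long annotation lowers the value of a gene and can affect the order of the complexes. The mitochondrial genes had median levels of 1603, 1566 and 1601 CPM per kb in LNCaP, LNCaP95 and 22Rv1, above the medians of all nuclear-encoded complexes. Among the nuclear-encoded complexes, complex I had the lowest median (45.0, 47.2 and 40.8 CPM per kb), followed by complex V (93.7, 84.7 and 87.7), while complexes III (115, 112 and 116) and IV (129, 125 and 120.5) lay close together. The most abundant mitochondrial mRNAs were MT-CO1 in LNCaP (2399 ± 69.4, SD, n = 3) and 22Rv1 (2611 ± 251). In LNCaP95 MT-ND4 (2292 ± 268) and MT-CO1 (2291 ± 200.4) did not differ beyond their spread. MT-ND6 was the lowest in each line (226 ± 26.3, 133 ± 14.4 and 186 ± 11.8). ATP5B led the nuclear-encoded genes at 560.0 ± 10.9, 596 ± 14.1 and 668 ± 33.5 CPM per kb.

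**Figure D5:**
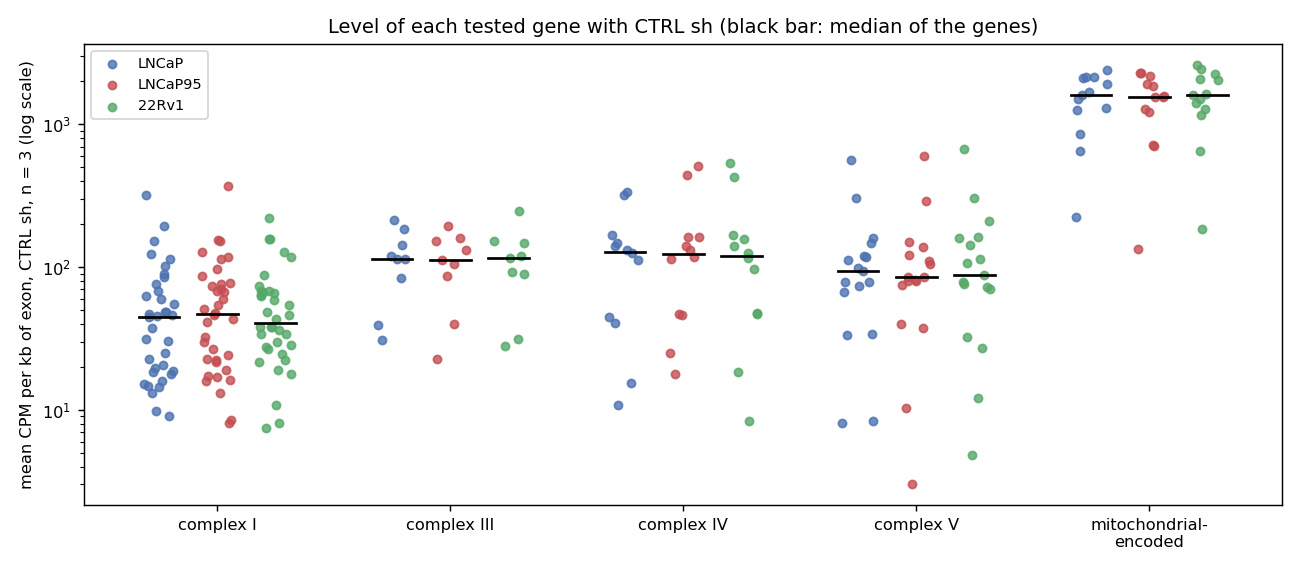
Mean CPM per kb of exon of each expressed gene in the CTRL sh libraries (n = 3, vertical log axis) by complex and line, black bars for medians of the genes. The mitochondrial genes lay above nearly all nuclear-encoded genes, MT-ND6 was their lowest point, and the order of the complexes by median was the same in the 3 lines.

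The levels of single subunits differed between the lines in a fit of the 9 CTRL sh libraries. Most genes were called in it (80.5% of all 10477 genes for LNCaP95 against LNCaP, 82.7% for 22Rv1 against LNCaP and 84.5% for 22Rv1 against LNCaP95). Of the 74 nuclear-encoded genes, 37 were higher and 19 lower in LNCaP95 than in LNCaP (40.1 and 40.4% of all genes), 31 higher and 25 lower in 22Rv1 than in LNCaP, and 24 higher and 31 lower in 22Rv1 than in LNCaP95. COX7A2L had the widest spread between lines, at 15.3 ± 0.485 CPM per kb in LNCaP, 25.2 ± 0.346 in LNCaP95 and 8.36 ± 0.397 in 22Rv1, a log2 difference of -1.59 between 22Rv1 and LNCaP95 (adjusted p = 2.87e-19). ATP5S was lower in LNCaP95 than in LNCaP (-1.48), NDUFB8 (1.21), NDUFA5 (0.98) and ATP5J2 (0.91) were higher in 22Rv1 than in LNCaP, and ATP5G1 was lower in LNCaP95 than in LNCaP (-0.68). Of the mitochondrial genes, MT-ND6 was lower in LNCaP95 than in LNCaP (-0.76, adjusted p = 1.84e-09), and MT-ND5 was higher in 22Rv1 than in LNCaP95 (0.70, adjusted p = 1.25e-11). Over the 13 mitochondrial genes, 1 was higher and 3 lower in LNCaP95 than in LNCaP, 3 higher and 1 lower in 22Rv1 than in LNCaP, and 6 higher and 1 lower in 22Rv1 than in LNCaP95. With library size alone these counts were 0 and 5, 6 and 1, and 8 and 0. Of all 10477 genes, 4026 were then higher and 4381 lower, 4408 and 4240, and 4732 and 4168. The medium of LNCaP95 also differed, and line and medium cannot be told apart.

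The 10 members that did not pass the filter were isoforms and gene copies. The ubiquitous subunits COX4I1, COX6A1, COX6B1, COX7A2, COX7B and COX8A were expressed in every line. Their tissue-restricted partners were not: COX4I2, COX6A2 and COX7A1, known from lung or striated muscle, had 0 counts in every library, COX6B2 had 0 to 2, COX8C 0 to 7 and COX7B2 0 to 16. The copies ATP5EP2 (0 to 1 counts) and ATP5L2 (0 to 2) and the read-through symbols NDUFC2-KCTD14 (0 to 27) and ATP5J2-PTCD1 (0 to 15) share sequence with expressed genes, so their counts depend on how shared reads were treated.

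Genes that serve the complexes without being subunits were examined in lists, whose counts are to be read against the 62.1% of all genes called in LNCaP (31.1% rose, 31.0% fell), 66.9% in LNCaP95 (33.2 and 33.7%) and 26.9% in 22Rv1 (12.7 and 14.3%). Complex II, the succinate dehydrogenase that links the citric acid cycle to ubiquinone and is encoded in the nucleus alone, had 4 genes tested. SDHB rose (0.22) and SDHC fell (-0.22) in LNCaP, SDHA (-0.35), SDHC (-0.15) and SDHD (-0.28) fell in LNCaP95, and SDHC rose (0.16) and SDHD fell (-0.21) in 22Rv1. Of 13 complex I assembly factors, 8 rose and 3 fell in LNCaP, 7 rose and 3 fell in LNCaP95, and 4 rose and 1 fell in 22Rv1, with medians of 0.30, 0.12 and 0.01. NDUFAF4 rose in all 3 lines (0.77, 0.83 and 0.32), from 24.8, 21.9 and 32.3 CPM in the CTRL sh libraries. TIMMDC1 also rose in all 3 (0.30, 0.28 and 0.14). FOXRED1 rose in LNCaP (0.37) and LNCaP95 (0.12) and fell in 22Rv1 (-0.58).

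Of 22 assembly factors of complexes III, IV and V, 11 rose and 6 fell in LNCaP, 5 rose and 11 fell in LNCaP95, and 2 rose and 4 fell in 22Rv1, where the share called was near that of all genes. UQCC1, which promotes cytochrome b synthesis for complex III, rose in every line (0.33, 1.32 and 0.64). TTC19, which clears fragments of the Rieske protein (-0.61, -0.49 and -0.27), and the complex IV assembly factors COX20 (-0.58, -0.81 and -0.31) and PET117 (-0.86, -0.69 and -0.64) fell in every line. Of 19 expressed genes for mitochondrial DNA maintenance, transcription and RNA processing, 11 rose and 1 fell in LNCaP, 13 rose and 1 fell in LNCaP95, and 5 rose and 1 fell in 22Rv1, with medians of 0.14, 0.29 and 0.02. In LNCaP the share called in either direction was near that of all genes. POLRMT, the mitochondrial RNA polymerase (0.39, 0.29 and 0.16), SUPV3L1, the helicase of mitochondrial RNA decay (0.43, 0.31 and 0.28), C10orf2, the Twinkle helicase (0.33, 0.58 and 0.22), and TRMT10C, a subunit of mitochondrial RNase P (0.22, 0.39 and 0.24), rose in all 3 lines. PNPT1, the exonuclease partner of SUPV3L1, rose in LNCaP (0.31) and LNCaP95 (0.58), as did LRPPRC, which stabilizes heavy-strand mRNAs (0.23 and 0.38). TFAM, which packages and transcribes the mitochondrial genome, rose in LNCaP95 (0.47).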

How the data were processed

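Poly(A)-selected RNA was sequenced with a strand-preserving kit. The authors aligned reads with HISAT2 (2.1.0) to GRCh37 and deposited raw counts per gene, made with Subread (2.0.3) against an Ensembl annotation with the strand of the reads. Tool versions are from the submitters' processing notes. How reads that map to several genes were treated is not given in the sources used here.

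The deposited counts of all 27 libraries were analysed here with edgeR (4.0.16, R 4.3.3), whose quasi-likelihood F-test was used in its legacy form. Within each line, genes had to exceed 2 CPM in every library, TMM factors were computed, and 3 CTRL sh libraries were compared with 6 CPSF1 sh libraries. Hairpins were compared in a fit of 3 groups per line, changes between lines by interaction terms in a fit of all 27 libraries, and CTRL sh levels in a fit of those 9 libraries. Benjamini-Hochberg adjustment ran over all genes tested, with a threshold of 0.05. Levels per kb used summed exon lengths. The code was tested on simulated data. DESeq2 (1.42.0), other scalings, other filters, a block on the replicate number and removal of single libraries served as alternatives.

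The genes examined, the gene lists, the tests and the alternatives were chosen with earlier results of these data known. Named are all mitochondrial genes, the largest non-overlapping changes per line (up to 5 each way), genes called alike in every line or oppositely in a pair of lines, the 5 largest differences between lines and hairpins, isoform pairs, and up to 3 rises and 3 falls per list and line. Core subunits and c-subunit genes were grouped, and further members of a complex named, after their values were seen. Some of the genes counted are not reported by name here.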

Additional observations from a re-analysis of the deposited data

Results flagged for a closer look

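The results below are changes with CPSF1 sh that differed between 2 lines in the edgeR fit of all 27 libraries, given as the 5 largest differences of called nuclear-encoded genes in each pair of lines. All values are differences of log2 fold changes with 6 CPSF1 sh and 3 CTRL sh libraries per line, and no cause of them was tested.

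Between LNCaP95 and LNCaP all 5 were more negative in LNCaP95. They were the complex I subunits NDUFA7 (-0.56, SE 0.0918, adjusted p = 8.1e-06) and NDUFS7 (-0.52, SE 0.109, adjusted p = 0.000243), the complex III subunits UQCR10 (-0.49, SE 0.0611, adjusted p = 1.14e-07) and UQCRC1 (-0.45, SE 0.0519, adjusted p = 3.28e-08), and the complex IV subunit COX8A (-0.44, SE 0.0663, adjusted p = 3.12e-06).

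Between 22Rv1 and LNCaP the 5 were more negative in 22Rv1. They were NDUFB7 (-0.38, SE 0.103, adjusted p = 0.00372), COX6A1P2 (-0.38, SE 0.143, adjusted p = 0.0403), UQCR10 (-0.36, SE 0.0617, adjusted p = 3.92e-05), NDUFS8 (-0.35, SE 0.0987, adjusted p = 0.00514) and NDUFS7 (-0.32, SE 0.109, adjusted p = 0.0188). COX6A1P2 shares sequence with COX6A1, was called in no line by itself, and lost this call in 10 alternatives.

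Between 22Rv1 and LNCaP95 the 5 were more positive in 22Rv1. They were NDUFA7 (0.64, SE 0.0932, adjusted p = 1.52e-06), NDUFA3 (0.47, SE 0.106, adjusted p = 0.000483), UQCRC1 (0.44, SE 0.0517, adjusted p = 4.89e-08), NDUFS5 (0.44, SE 0.0882, adjusted p = 0.000138) and NDUFB5 (0.42, SE 0.0658, adjusted p = 4.87e-06). NDUFS5 and UQCRC1 were called in every line, NDUFS5 in the same direction each time and UQCRC1 with LNCaP95 opposite to the others.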

How the results depend on the processing

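Of the values recomputed for summary counts, 352 stayed within 1.5 times the count reported and 47 did not. Of those for single genes, medians and shares, 2379 were unchanged, 146 lost a call and 47 gained one. A further 18 values with no test moved, and 3 genes reversed. A gene was unchanged if it kept its side of the threshold and, where it was called in either setting, its direction. A median or share was unchanged if it moved by less than the SD between libraries. The counts of the mitochondrial genes in LNCaP and of the nuclear-encoded genes in 22Rv1 rest on single libraries. The rise of MT-ND6 was called in every line under each alternative run.

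In LNCaP the 5 risen mitochondrial genes became 3 with no filter, 8 with the hairpins as separate groups, 13 with CPSF1 sh1 alone, 1 with CPSF1 sh2 alone and 12 with the total count as a covariate, and the 22 genes that differed between hairpins became 8 with DESeq2. In LNCaP95 the 4 risen nuclear-encoded genes became 12 with library size alone and 7 with the trend with exon length removed or with CPSF1 sh2 alone. The 31 that fell became 20 with library size alone. The 7 mitochondrial genes that fell became 4 with library size alone, 2 with the length trend removed and 11 with CPSF1 sh1 alone, and the 1 that rose became 2 with the length trend removed. That setting reversed MT-ATP8 to 0.24, MT-ND4L to 0.0124 and NDUFB7 to 0.18 in LNCaP95, and the cause was not tested. In 22Rv1 the 6 risen nuclear-encoded genes became 10 with the length trend removed, and the 7 that fell became 11 with separate hairpins, 27 with CPSF1 sh2 alone and 3 with CPSF1 sh1 alone. The 3 risen mitochondrial genes became 5 with CPSF1 sh2 alone and 1 with CPSF1 sh1 alone, and the 4 genes that differed between hairpins became 2 with DESeq2. The 47 genes whose change differed between LNCaP95 and LNCaP became 28 with library size alone.

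Leaving out each library in turn gave, in LNCaP, 26 to 33 rises and 6 to 11 falls of the nuclear-encoded genes, 1 to 8 mitochondrial rises (1 without any CTRL sh library, 3 without CPSF1 sh1 replicate 2, 2 without CPSF1 sh1 replicate 3, 8 without CPSF1 sh2 replicate 2) and 5 to 23 differences between hairpins (14 without CPSF1 sh1 replicate 1, 5 without CPSF1 sh2 replicate 2). In LNCaP95 it gave 3 to 5 rises and 25 to 34 falls of the nuclear-encoded genes, 1 mitochondrial rise, 4 to 7 mitochondrial falls (4 without CTRL sh replicate 3) and 11 to 23 differences between hairpins (12 without CPSF1 sh1 replicate 1, 15 without CPSF1 sh1 replicate 2, 12 without CPSF1 sh2 replicate 1, 11 without CPSF1 sh2 replicate 3). In 22Rv1 it gave 4 to 7 rises and 3 to 23 falls of the nuclear-encoded genes, 1 to 3 mitochondrial rises (1 without CTRL sh replicate 1 or 2) and 0 to 11 differences between hairpins (11 without CPSF1 sh1 replicate 1, 2 without CPSF1 sh1 replicate 2, 0, 1 and 1 without CPSF1 sh2 replicates 1, 2 and 3). Differences between lines numbered 37 to 52 for LNCaP95 against LNCaP, 16 to 28 for 22Rv1 against LNCaP and 21 to 33 for 22Rv1 against LNCaP95, and differences of CTRL sh levels 53 to 63, 56 to 60 and 55 to 62.

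Libraries with the same replicate number had deviations with correlations of -0.25 to 0.29. Pairs with different numbers were not set beside them, so these values do not settle whether the numbers pair the samples. A replicate block gave 31 rises and 8 falls of the nuclear-encoded genes and 5 mitochondrial rises in LNCaP, 4 rises, 31 falls and 6 mitochondrial falls in LNCaP95, and 6 rises, 5 falls and 3 mitochondrial rises in 22Rv1.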

Other observations

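Proteins that hand electrons to the chain or exchange its products were examined in a list of 10 genes. In LNCaP 4 rose and 4 fell, in LNCaP95 2 rose and 6 fell, and in 22Rv1 3 fell, with medians of -0.02, -0.20 and -0.11. Of all genes, 62.1, 66.9 and 26.9% were called, and the count in 22Rv1 lay near that share. SLC25A6, an adenine nucleotide translocase that exports ATP from the mitochondrion, fell in every line (-0.37, -0.85 and -0.49), from 759 ± 34.7 (SD, n = 3) to 588 ± 24.8 CPM (n = 6) in LNCaP, from 118 ± 11.1 to 64.8 ± 13.3 CPM in LNCaP95 and from 641 ± 19.4 to 456 ± 47.7 CPM in 22Rv1. Its paralog SLC25A5 also fell in each line (-0.09, -0.35 and -0.26), and SLC25A4 fell in LNCaP (-0.10) and LNCaP95 (-0.43). ATPIF1, the inhibitor of ATP synthase, rose in LNCaP (0.34) and LNCaP95 (0.25). CYCS, cytochrome c itself, rose in LNCaP (0.33) and fell in 22Rv1 (-0.12), and DHODH, which feeds electrons from pyrimidine synthesis into ubiquinone, rose in LNCaP (0.35) and LNCaP95 (0.47).

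Of 11 regulators of these genes, 9 passed the expression filter. In LNCaP 5 rose and 1 fell, in LNCaP95 4 rose and 1 fell, and in 22Rv1 1 fell, with medians of 0.24, 0.16 and 0.01. The share called in either direction was near that of all genes in LNCaP and below it in LNCaP95, where 31.1 and 33.2% of all genes rose. PPARGC1B, a coactivator of mitochondrial biogenesis, rose in LNCaP (0.43) and, from 12.995 ± 1.86 to 35.1 ± 3.04 CPM, in LNCaP95 (1.44, adjusted p = 3.13e-07), and lay at 43.2 ± 2.38 and 44.7 ± 7.35 CPM in 22Rv1. Its nuclear receptor partner ESRRA rose in LNCaP (0.32) and LNCaP95 (0.63), as did TFEB, a regulator of lysosomal genes (0.48 and 0.62). LONP1, the protease of the mitochondrial matrix, fell in each line (-0.32, -0.43 and -0.19). The transcription factors NRF1, GABPA and YY1, whose motifs were searched above, were called in no line, with changes between -0.06 and 0.16. PPARGC1A and ESRRG were below the filter.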
